A study of Mus musculus with 4 samples.

Results

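Interferon-stimulated genes are the transcripts that a cell makes when an interferon binds its receptors. The 9 described here, of 29897 genes listed in the colon libraries, were named as a list of known interferon targets. No threshold on these counts picked them, but they were chosen with earlier results of these data known. Their shares set against all genes are therefore a description and no independent test. Ifit1, Ifit3, Isg15 and Irf7 stand for targets that answer mainly to type I interferons and are called type I-like. Iigp1, Igtp and Gbp2 stand for targets that answer mainly to interferon gamma and are called gamma-like. Zbp1 and AW112010 answer to both kinds and are kept apart. All 9 genes had counts in each of the 4 libraries.

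The libraries were droplet single-cell RNA sequencing of dissociated mouse colon. In 2 of them the animals were specific-pathogen-free mice that received the liver toxin carbon tetrachloride (CCl4) from 6 weeks of age and over 6 weeks, and the submitters' wording for the tissue is mild-colon. The other 2 libraries are labelled control, with no age, vehicle or duration given here. Strain, sex and the number of animals behind a library are not given either, so the p-values below measure only the spread between libraries, which may be technical.

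Type I interferons, such as interferon beta, act through the receptor pair Ifnar1 and Ifnar2 and a complex of transcription factors that includes Irf9, which binds the interferon-stimulated response element (ISRE) in promoters. Interferon gamma, made mostly by T, natural killer and innate lymphoid cells, acts through Ifngr1 and Ifngr2 on genes with a gamma-activated site (GAS), among them Irf1, itself a factor that reads ISRE-like sequences. In the gut, such genes are carried at a low level without infection and prepare epithelium, vessels and macrophages for microbes that cross the barrier.

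The promoters of 5 members are printed because both arms carry the same element in them, the core of the ISRE. They are the 250 bases before the RefSeq transcription start (build GRCm38.p6), written 5′ to 3′ on the strand of the gene, with matches to the ISRE core or the GAS in capitals. Ifit1 lies at chr19:34640639-34640888 on the plus strand, Ifit3 at chr19:34583279-34583528 on the plus strand, and Isg15 at chr4:156200819-156201068 on the minus strand. Igtp lies at chr11:58199306-58199555 and Gbp2 at chr3:142620413-142620662, both on the plus strand.
Ifit1: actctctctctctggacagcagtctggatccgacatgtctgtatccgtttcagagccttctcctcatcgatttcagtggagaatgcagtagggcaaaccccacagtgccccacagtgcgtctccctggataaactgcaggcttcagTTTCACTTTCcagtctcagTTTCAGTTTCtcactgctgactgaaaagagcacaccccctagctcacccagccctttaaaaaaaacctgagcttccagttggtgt
Ifit3: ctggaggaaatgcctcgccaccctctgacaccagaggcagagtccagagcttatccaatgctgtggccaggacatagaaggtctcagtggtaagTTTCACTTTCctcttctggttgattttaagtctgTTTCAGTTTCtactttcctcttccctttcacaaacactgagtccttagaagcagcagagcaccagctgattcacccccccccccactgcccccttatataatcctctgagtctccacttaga
Isg15: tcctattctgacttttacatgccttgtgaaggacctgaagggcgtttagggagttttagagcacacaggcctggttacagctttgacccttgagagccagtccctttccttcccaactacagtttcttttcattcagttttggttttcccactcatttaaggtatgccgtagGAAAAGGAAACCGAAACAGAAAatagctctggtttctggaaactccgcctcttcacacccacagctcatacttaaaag
Igtp: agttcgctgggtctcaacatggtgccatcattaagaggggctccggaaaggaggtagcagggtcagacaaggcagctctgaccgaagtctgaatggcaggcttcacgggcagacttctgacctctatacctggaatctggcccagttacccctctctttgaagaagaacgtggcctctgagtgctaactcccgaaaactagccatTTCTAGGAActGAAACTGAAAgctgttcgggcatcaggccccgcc
Gbp2: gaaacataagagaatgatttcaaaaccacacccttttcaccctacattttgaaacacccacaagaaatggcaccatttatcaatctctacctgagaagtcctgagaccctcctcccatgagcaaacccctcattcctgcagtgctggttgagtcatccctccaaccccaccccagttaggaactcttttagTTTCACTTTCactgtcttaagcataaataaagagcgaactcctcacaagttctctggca

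The core was searched on both strands as GAAA, any 2 bases and GAAA again, and positions are those of the first base of a match counted back from the start. Ifit1 had 2 matches, at 104 and 85 bases before the start, and Ifit3 had 2, at 156 and 122 bases. In Isg15, 3 matches overlapped at 78, 72 and 66 bases. Igtp had 1 match at 34 bases, a few bases downstream of the only GAS match (TTCNNNGAA, both strands) among the members, at 45 bases, and Gbp2 had 1 core match at 59 bases. The core occurred in 5 of the 7 member promoters that were matched and in 2.98% of 32851 promoter windows of the same length, and the GAS letters in 1 of 7 and in 7.02%. Irf7 and AW112010 held neither run of letters in this window, and Zbp1 and Iigp1 were not matched. These are matches of letters and not measured binding sites.

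In GRCm38 with the GENCODE M21 annotation, Ifit1 (chr19:34640871-34650009) and Ifit3 (chr19:34583531-34588731) lie near each other on the plus strand. Isg15 (chr4:156199424-156200818), Irf7 (chr7:141262706-141266481), Zbp1 (chr2:173206612-173218923) and AW112010 (chr19:11047612-11055808) are on minus strands. Igtp (chr11:58199556-58207591), Gbp2 (chr3:142620602-142638008) and Iigp1 (chr18:60376027-60392634) are on plus strands. All are protein-coding except AW112010, a long intergenic RNA in this annotation that is known to be translated into a short peptide in mouse macrophages. Igtp shares 7974 bases of the same strand with Irgm2, another immunity-related GTPase, so how the counts were split between these 2 genes is uncertain. Reads of Ifit3 may likewise be shared with its near copy Ifit3b, which had at most 34 counts per library in any class. In glia Ifit3b had 5 and 33 counts in CCl4 libraries and 5 and 17 in control libraries. Ifit3 had 135 and 66 counts in CCl4 glia and 69 and 69 in control glia, so the split is uneven between libraries there.

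The CCl4 libraries held 92383719 and 74643979 counts and the control libraries 55834301 and 58667918. After filtering, 10383 and 9792 CCl4 cells and 8103 and 8245 control cells were used, with a median of 4488 and 3991.5 counts per CCl4 cell and 3838 and 4045 per control cell. The median mitochondrial share was 7.52% and 6.84% in CCl4 cells and 4.84% and 4.56% in control cells, and clusters that took no name held 14.3% and 17.2% of CCl4 cells and 7.36% and 11.4% of control cells. Clusters were named from lineage markers, so that macrophage stands for macrophage- or monocyte-like and the other names likewise, and the 12 classes that held 50 or more cells per library were fitted. Most markers were highest in their own class, with 11 of 11 for macrophages, 10 of 10 for goblet cells, 9 of 11 for colonocytes and 6 of 8, the lowest share, for dendritic cells. Undivided epithelial cells carry the shared epithelial markers without a lead for a single epithelial type. Some 13113 barcode names occurred in more than 1 library, but 0 cells matched a cell of another library in all their counts.

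Levels are in CPM, the counts added up over a class and scaled by edgeR to a common library total, and a change is a log2 ratio, CCl4 over control. They are not corrected for transcript length, so levels are compared between classes for 1 gene and not between genes. The scaling was made within each class, so differences in RNA make-up between classes are not corrected either. In plasma cells 6 immunoglobulin genes alone held 494659 to 553474 CPM per library, unscaled, which lowers the CPM of all other genes there. Iigp1 and Igtp, GTPases that attack the vacuoles of intracellular microbes, were highest in blood endothelium. Iigp1 stood there at 582 and 473 CPM in CCl4 libraries and 640 and 548 CPM in control libraries, and next in lymphatic endothelium at 130 and 91.3 CPM against 179 and 243 CPM. No other class exceeded 58.2 CPM of Iigp1, and colonocytes had 0.273 and 0.358 CPM in CCl4 libraries and 1.14 and 1.03 CPM in control libraries. Gbp2, a guanylate-binding protein of the same defence, was highest in lymphatic endothelium, at 125 and 88.0 CPM in CCl4 libraries and 186 and 255 CPM in control libraries, a range that overlapped that of blood endothelium, next in order.

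Type I-like genes were spread differently. Ifit3, a partner of Ifit1, was highest in glia at 117 and 73.0 CPM in CCl4 libraries and 85.5 and 96.3 CPM in control libraries. Ifit1, which recognises foreign RNA by its cap, had mean levels over libraries of 41.0 CPM in lymphatic endothelium and 33.3 CPM in glia, with overlapping ranges. Isg15, a ubiquitin-like protein tag, had its highest means in T and innate lymphoid cells (134 CPM) and macrophages (131 CPM), also with overlapping ranges. Irf7, the factor that amplifies type I interferon production, was highest in colonocytes, with a range of 41.3 to 73.9 CPM that did not meet that of the next class.

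AW112010 was highest in blood endothelium (407 and 421 CPM in CCl4 libraries, 479 and 399 CPM in control libraries) and T and innate lymphoid cells (344 and 298 CPM against 379 and 360 CPM). Zbp1, a sensor of Z-form nucleic acid that can start necroptosis, had its highest mean in plasma cells, with colonocytes next and overlapping ranges. Along the order of 12 classes, between 8 and 11 of the 11 neighbouring pairs overlapped for each gene, so few steps of an order are distinct. Across the 12 class means, Ifit1 and Ifit3 went together with a correlation of log2 levels of 0.95, and Iigp1 with Gbp2 of 0.82, while Irf7 with Ifit3 stood at 0.14. The points share libraries, depth and low counts, and the values describe these classes only.

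**Figure D1:**
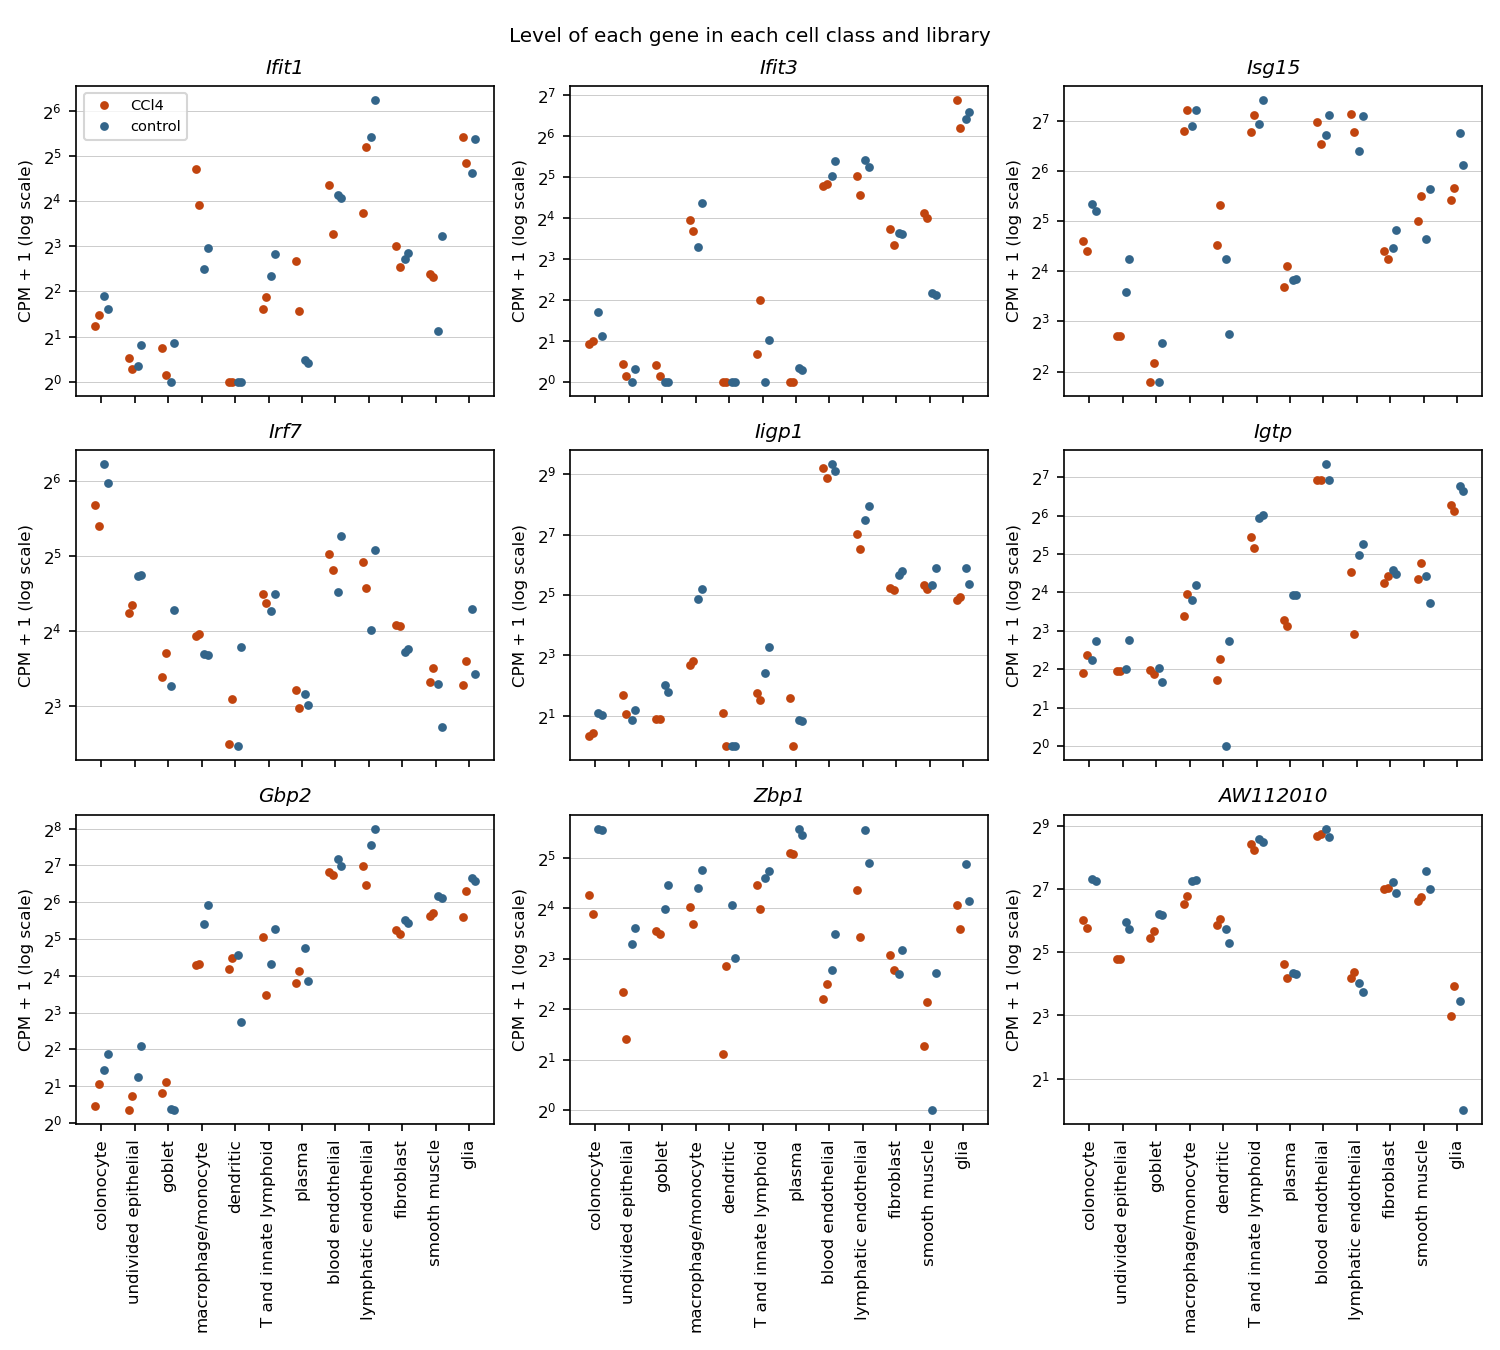
Level of each gene in each cell class, 1 point per library, as CPM + 1 on a log scale, with CCl4 libraries left of control libraries. Iigp1 reaches 473 to 640 CPM in blood endothelium and stays near 1 CPM in colonocytes, while Irf7 is highest in colonocytes.

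A share of cells with a count gives the same picture. Each cell was thinned to 1000 counts, and 0 cells fell below that number. A count of any gamma-like gene was then found in 34.6% and 37.1% of CCl4 blood endothelial cells and 40.3% and 39.3% of control ones, against 0.121% and 0.409% of CCl4 goblet cells and 0.833% and 0.772% of control goblet cells. The exact 95% binomial intervals, which cover counting error only, were 31.1% to 38.2% and 33.4% to 41.0% for CCl4 and 36.6% to 44.1% and 35.5% to 43.2% for control blood endothelium, and none reached above 2.98% in goblet cells. Unthinned shares were 62.8% and 67.9% against 61.9% and 61.6% in blood endothelium, and 3.86% and 3.41% against 4.17% and 5.02% in goblet cells, whose cells are deeper (a median of 12100 counts against 3651 in blood endothelium). In macrophages, thinned shares with an Iigp1 count were 0.697% and 0.155% in CCl4 libraries and 2.27% and 2.87% in control libraries, with intervals of 0.227% to 1.62% and 0.0039% to 0.861% for CCl4 and 1.30% to 3.65% and 1.74% to 4.45% for control, and unthinned shares 1.81% and 1.71% against 4.82% and 5.75%. Free RNA can give such counts in any class, goblet cells included, and its part was not measured.

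Between the groups, 83 of 108 pairs of a gene and a class had enough counts for the test. The edgeR quasi-likelihood test, with Benjamini-Hochberg adjustment over all genes of a class, called 12 pairs lower and 2 higher in CCl4 libraries. Over all genes tested, 0.513% of pairs were called lower and 0.814% higher. The CCl4 libraries lay below both control libraries in 45 pairs and above both in 8, where all genes gave 20.5% and 21.3%. The log2 ratio was negative in 63 pairs and positive in 20, with a median of -0.38 against -0.0008 over all genes. Of the 14 calls, 4 held under every alternative run, namely AW112010 in colonocytes and undivided epithelial cells and Iigp1 and Gbp2 in macrophages. With 2 libraries a group, an exact permutation test of a single value cannot pass the threshold, so each call rests on a model that pools the spread over genes.

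**Figure D2:**
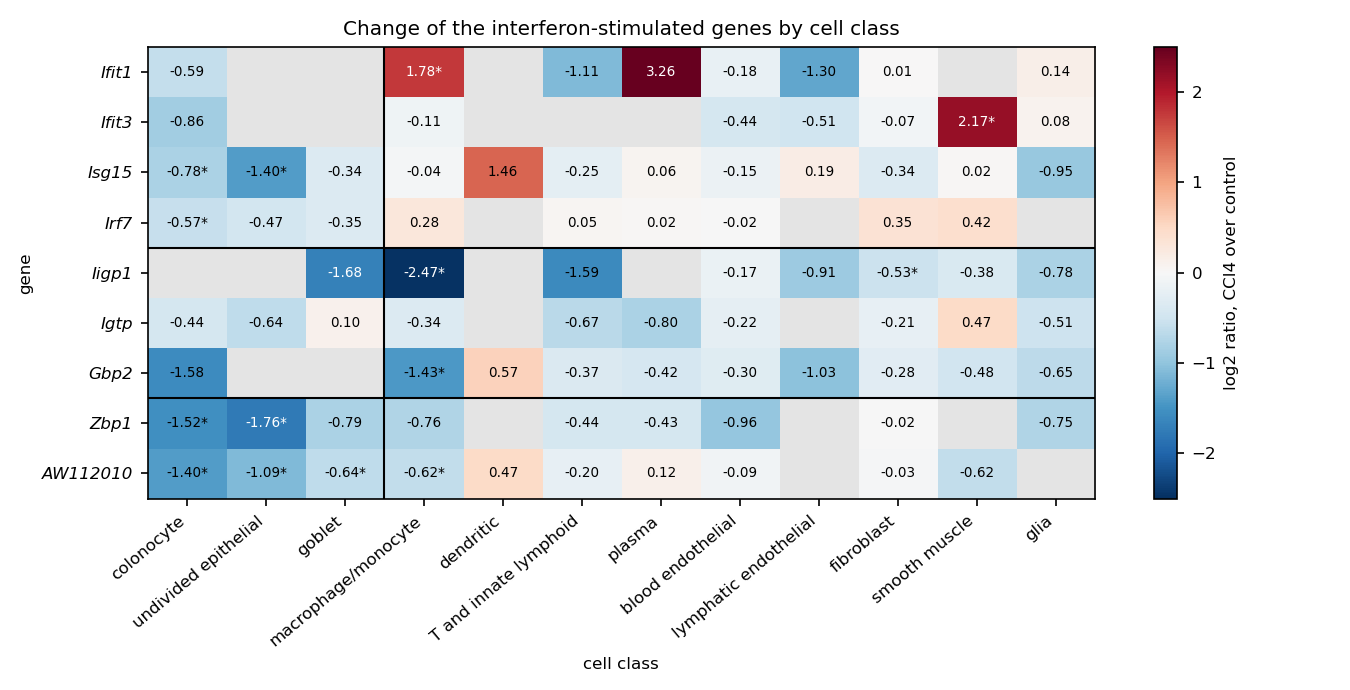
Log2 ratio of CCl4 over control for each gene (rows) in each cell class (columns). Asterisks mark edgeR adjusted p under 0.05, grey cells were not tested, and lines divide type I-like, gamma-like and other genes and the 3 epithelial classes from the rest. All 19 tested epithelial pairs but Igtp in goblet cells (0.10) are negative.

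In the epithelium, 8 of 19 tested pairs were lower and 0 higher in CCl4 libraries, against 0.921% and 0.849% of all genes, and the median log2 ratio was -0.78. Colonocytes, the absorptive cells of the surface, held 4 of them, where 0.981% of all genes were called lower and 0.669% higher. Isg15 had 23.4 and 20.2 CPM in CCl4 colonocytes, against 39.2 and 35.7 CPM in control colonocytes. Irf7 had 50.2 and 41.3 CPM in CCl4 colonocytes, against 73.9 and 62.2 CPM in control colonocytes. The 2 groups did not overlap in either gene, and Isg15 fell by 0.78 (SE 0.138, edgeR adjusted p = 0.00232) and Irf7 by 0.57 (SE 0.117, adjusted p = 0.0089) on the log2 scale. Zbp1 had 18.2 and 13.9 CPM against 46.6 and 45.5 CPM, and AW112010 63.2 and 53.9 CPM against 158 and 151 CPM. Their log2 ratios of -1.52 (adjusted p = 5.817e-07) and -1.40 (adjusted p = 6.503e-09) were the largest changes of called members in this class.

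Ifit1 and Ifit3 were near the limit of detection in colonocytes, with 8 to 20 counts per library and log2 ratios of -0.59 and -0.86 that did not pass. Gbp2 had 4 and 12 counts in CCl4 colonocytes and 12 and 18 in control colonocytes, and its ratio of -1.58 did not pass either. The Isg15 and Zbp1 calls were lost under 1 of 13 alternatives, stricter cells (500 genes or more together with a mitochondrial share of up to 10%), which left 405 of 2758 colonocytes. Over all alternatives the ratio of Isg15 stayed between -1.13 and -0.68 and that of Zbp1 between -1.73 and -1.34. Irf7 was lost in the stricter cells too, when CCl4 library 2 was left out, and when low counts were not filtered, with ratios between -0.77 and -0.44 over all alternatives.

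Undivided epithelial cells held 3 further calls, all lower, where 1.47% of all genes were lower and 1.25% higher. Isg15 had 5.51 and 5.55 CPM in CCl4 cells, against 11.0 and 18.01 CPM in control cells (log2 ratio -1.40, adjusted p = 0.0174). Zbp1 had 4.09 and 1.67 CPM against 8.81 and 11.2 CPM (-1.76, adjusted p = 0.0333), and AW112010 26.7 and 26.9 CPM against 61.7 and 52.8 CPM (-1.09, adjusted p = 0.0001703). All CCl4 libraries lay below both control libraries. Isg15 lost its call without CCl4 library 1 or control library 2 and when cells were clustered without interferon genes, and Zbp1 without CCl4 library 2 or control library 2 and in the stricter cells. Both lost it when cells with leukocyte transcripts were left out. Over all alternatives the ratio of Isg15 ran from -1.68 to -0.99 and that of Zbp1 from -2.57 to -1.29. In goblet cells, where 0.257% of all genes were lower and 0.594% higher, AW112010 had 42.7 and 50.2 CPM in CCl4 libraries and 72.9 and 71.6 CPM in control libraries (-0.64, adjusted p = 0.028), a call lost without CCl4 library 1 or either control library.

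Several other values moved between the groups in the same cells. Colonocyte markers (11 genes, 0 of them at 0) summed to 2216 and 2254 CPM in CCl4 undivided epithelial cells and 3233 and 3784 CPM in control ones, and to 16050 and 14610 CPM against 18360 and 17260 CPM in colonocytes. The undivided class joined 2 clusters, with 758 and 677 cells and 516 and 488 cells in CCl4 libraries and 344 and 394 cells and 140 and 97 cells in control libraries. In each cluster alone AW112010 was called lower, with log2 ratios of -1.13 and -1.12 where 0.797% and 0.23% of all genes were lower. Isg15 had ratios of -1.14 and -0.73 and was called in neither, and Zbp1 was called in the larger (-1.89, adjusted p = 0.042) and not in the smaller (-0.69). Transcripts of 17 leukocyte genes summed to 25.6 and 24.6 CPM in CCl4 colonocytes, against 16.0 and 16.6 CPM in control colonocytes. In undivided epithelial cells they summed to 24.2 and 25.9 CPM against 20.8 and 27.3 CPM. In T and innate lymphoid cells the same 17 genes summed to between 5890 and 8149 CPM.

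Igha, an immunoglobulin transcript of plasma cells, had 179 and 113 CPM in CCl4 colonocytes and 386 and 384 CPM in control colonocytes, and 235700 and 229000 CPM against 323100 and 278400 CPM in plasma cells. Plasma cells themselves had 33.3 and 32.6 CPM of Zbp1 in CCl4 libraries and 46.2 and 42.8 CPM in control libraries. Of the counts of a colonocyte, a median of 16.4% and 15.1% were mitochondrial in CCl4 libraries and 15.2% and 15.2% in control libraries. The 10 fibroblast markers, 0 of them at 0, summed to 45.9 and 71.4 CPM in CCl4 colonocytes and 113 and 132 CPM in control colonocytes. The 6 erythroid markers, 0 of them at 0, were higher in every CCl4 library, at 326 and 206 CPM in CCl4 goblet cells and 5.56 and 9.33 CPM in control goblet cells, at 36.6 and 212 CPM against 15.5 and 11.6 CPM in colonocytes, and at 1129 and 48.4 CPM against 15.4 and 16.0 CPM in undivided cells. The part of these shifts in the changes of the members was not tested.

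Whether the epithelium differed from the other classes was tested as 1 contrast, the mean change of the 3 epithelial classes minus that of the 9 others, with a term for each library. AW112010 (difference of log2 ratios -1.08, SE 0.148, edgeR adjusted p = 5.889e-07) and Isg15 (-0.84, SE 0.232, adjusted p = 0.0305) fell more in the epithelium, 2 of 9 members where 2.72% of all genes passed in either direction and 1.98% with the lower change in the epithelium. The differences for Zbp1 (-0.62, adjusted p = 0.263) and Irf7 (-0.46, adjusted p = 0.317) did not pass, so their colonocyte calls are not shown to be particular to the epithelium. Those for Iigp1 (-0.65), Gbp2 (-0.27) and Igtp (0.09) did not pass either, and counts of Ifit1 and Ifit3 were too few for an estimate. The Isg15 difference was lost in 7 of 11 alternatives, among them leaving out CCl4 library 1, CCl4 library 2 or control library 2.

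**Figure D3:**
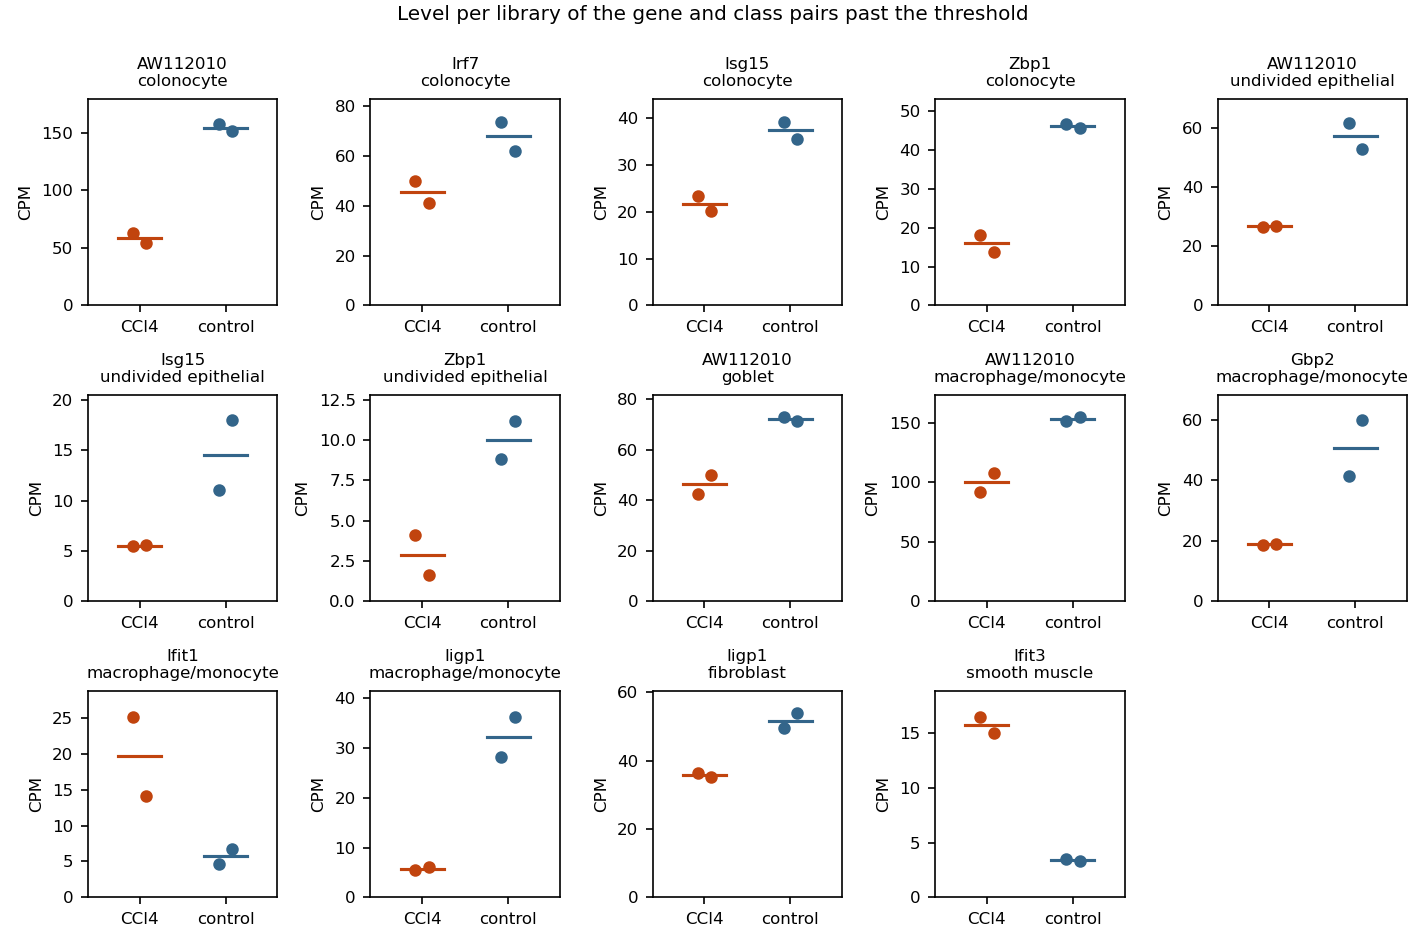
CPM per library (points) and group mean (line) for the 14 pairs of gene and class past the threshold, CCl4 left and control right, each axis starting at 0. Ifit1 in macrophages and Ifit3 in smooth muscle are the pairs that were higher in CCl4 libraries, and the groups overlap in none of the 14.

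Macrophages, which take up microbes and are classic targets of interferon gamma, showed the widest split between the arms. Called members were 3 lower, where 0.542% of all genes were lower, and 1 higher, where 1.19% were higher. Iigp1 had 5.43 and 6.12 CPM in CCl4 macrophages, against 28.1 and 36.1 CPM in control macrophages. Both CCl4 libraries lay far below both control libraries, and Iigp1 fell by 2.47 on the log2 scale (SE 0.317, edgeR adjusted p = 1.973e-05), the largest fall of any called member. The counts were 16 and 16 in CCl4 libraries and 73 and 101 in control libraries, spread over 13 and 11 CCl4 cells and 34 and 38 control cells. Gbp2 had 18.7 and 19.1 CPM in CCl4 macrophages, against 41.6 and 60.0 CPM in control macrophages (-1.43, SE 0.235, adjusted p = 0.0006198). Igtp, the third gamma-like gene, had 9.497 and 14.5 CPM against 13.1 and 17.2 CPM, overlapping groups and a ratio of -0.34 that did not pass.

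AW112010 fell as well, with 91.9 and 108 CPM in CCl4 macrophages and 152 and 155 CPM in control macrophages (-0.62, adjusted p = 0.008574), a call lost without CCl4 library 1. Zbp1 had 15.3 and 11.9 CPM against 20.01 and 26.1 CPM and did not pass (-0.76). Among type I-like genes, Ifit1 had 25.1 and 14.2 CPM in CCl4 macrophages, against 4.62 and 6.79 CPM in control macrophages (1.78, SE 0.392, adjusted p = 0.0127). Its 74 and 37 counts in CCl4 libraries came from 19 and 12 cells, against 12 and 19 counts from 7 and 11 control cells, and a single CCl4 cell held 27 counts. The call was lost with DESeq2 and without CCl4 library 1, at an adjusted p of up to 0.448. Isg15 (-0.04), Ifit3 (-0.11) and Irf7 (0.28) did not pass.

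The macrophage change of each member was set against its change in the other classes where the gene was tested and had counts in both groups. This gave from 6 classes for Ifit3 to 11 for Isg15. Iigp1 was compared with 7 classes, and not with colonocytes, undivided epithelial cells, plasma cells or dendritic cells. Iigp1 fell more in macrophages than in blood endothelium (difference of log2 ratios -2.32, edgeR adjusted p = 3.812e-05), smooth muscle (-2.09, adjusted p = 0.003137) and fibroblasts (-1.95, adjusted p = 0.003398), where 0.0802%, 0.252% and 0.138% of all genes passed. The other 4 differences of Iigp1 did not pass, at adjusted p-values from 0.189 to 0.849. AW112010 fell less in macrophages than in colonocytes (0.76, adjusted p = 0.0285, with 0.573% of all genes passing), and the Isg15 change was higher in macrophages than in undivided epithelial cells (1.32, adjusted p = 0.0392, with 0.9% passing). None of the 9 differences of Gbp2 and none of the 7 of Ifit1 passed, so their changes are not shown to be particular to macrophages.

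**Figure D4:**
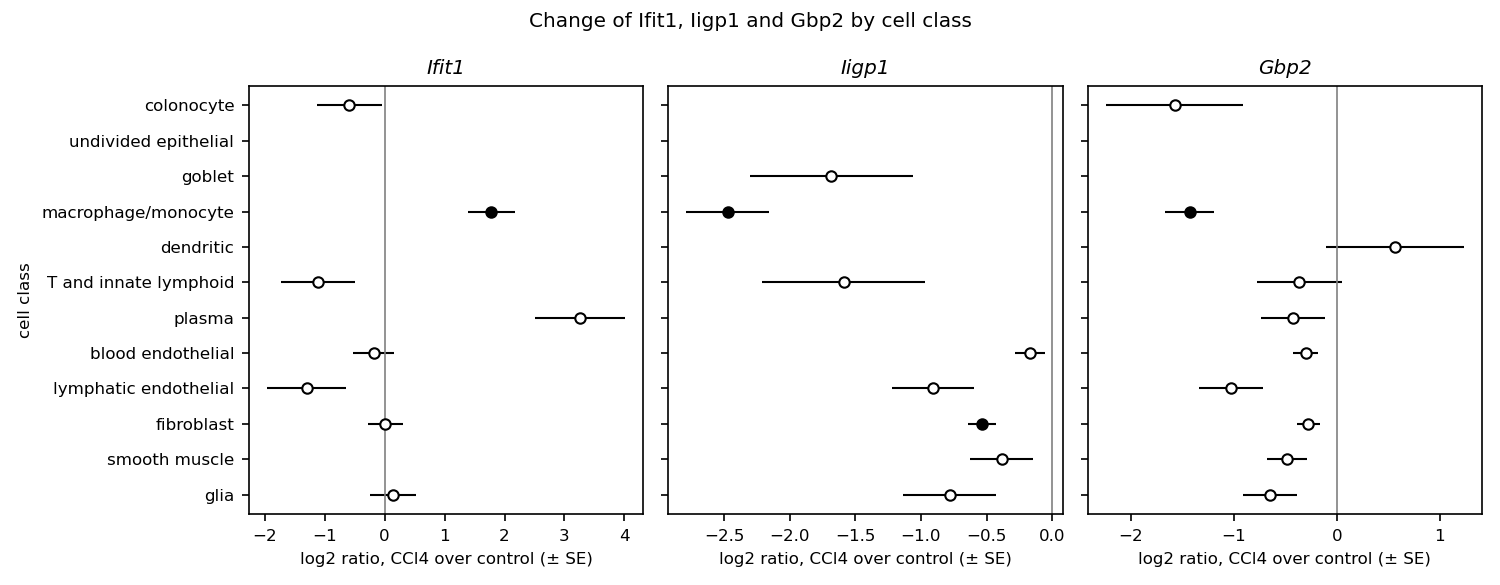
Log2 ratio of CCl4 over control with its standard error for Ifit1, Iigp1 and Gbp2 in each class in which they were tested. Filled points passed edgeR's adjusted p under 0.05: Ifit1 at 1.78 and Gbp2 at -1.43 in macrophages, and Iigp1 at -2.47 in macrophages and -0.53 in fibroblasts.

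A pair of clusters made up the macrophage class. The larger, led by the complement genes C1qa and C1qc, had 535 and 492 CCl4 cells and 569 and 510 control cells. In it, Iigp1 had 6.97 and 7.34 CPM in CCl4 libraries and 33.4 and 44.1 CPM in control libraries (-2.43, edgeR adjusted p = 5.388e-05), and Gbp2 (-1.32, adjusted p = 0.0054) and AW112010 (-0.55, adjusted p = 0.0376) were called lower too, where 0.555% of all genes were lower. The smaller, led by the inflammatory genes Cxcl2, Ccl4, Ccl3 and Il1b, had 182 and 153 CCl4 cells and 137 and 151 control cells. Ifit1 stood there at 60.4 and 38.4 CPM in CCl4 libraries and 20.2 and 16.1 CPM in control libraries (1.45), which did not pass in this cluster, nor did its ratio of 2.05 in the larger one, where 0.199% and 1.09% of all genes were higher in the smaller and the larger cluster. Gbp2 (-1.80) and AW112010 (-0.89) did not pass in the smaller cluster, where 0.0916% of all genes were lower, and Iigp1 had 1 and 2 counts against 5 and 9 there and was not tested.

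Markers of other cells were also read in macrophages. The 10 markers of blood endothelium, the class richest in Iigp1, summed to 64.8 and 75.0 CPM in CCl4 macrophages and 66.2 and 70.4 CPM in control macrophages, against 14080 to 15580 CPM in that endothelium. The 7 neutrophil markers summed to 448 and 267 CPM in CCl4 macrophages and 145 and 185 CPM in control macrophages, and the 10 goblet markers to 311 and 260 CPM against 117 and 92.9 CPM. The 6 markers of lymphatic endothelium, some of which macrophages share, summed to 63.1 and 63.5 CPM in CCl4 macrophages and 118.5 and 81.8 CPM in control macrophages, against 15540 to 17490 CPM in that endothelium, where Iigp1 stood at 91.3 to 243 CPM. No marker of these 4 sets was at 0. The 12 dissociation-response genes summed to 29104 and 28484 CPM in CCl4 macrophages and 30663 and 29014 CPM in control macrophages, with Fosb (0.51) and Egr1 (0.38) among them called higher. The part of these shifts in the changes of Ifit1, Iigp1 and Gbp2 was not tested.

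Among the remaining classes, 1 member fell and 1 rose. Fibroblast Iigp1 had 36.3 and 35.1 CPM in CCl4 libraries, against 49.5 and 54.0 CPM in control libraries (-0.53, SE 0.108, edgeR adjusted p = 0.0172), where 0.579% of all genes were lower and 1.34% higher. The groups did not overlap, and the call was lost with DESeq2, without CCl4 library 2 and in the stricter cells, with ratios between -0.59 and -0.45 over all alternatives. Smooth muscle Ifit3 had 16.4 and 14.95 CPM in CCl4 libraries, against 3.52 and 3.35 CPM in control libraries (2.17, SE 0.505, adjusted p = 0.0321), where 1.34% of all genes were higher and 0.496% lower. It rested on 35 and 26 counts in 8 and 11 CCl4 cells and 6 and 6 counts in 5 and 5 control cells, and 1 CCl4 cell held 24 counts. By cluster, 33 and 23 of the CCl4 counts and 3 and 4 of the control counts lay in the one led by Actg2, Cnn1 and Hhip (182 and 155 CCl4 cells, 184 and 191 control cells), and 2 and 3 against 3 and 2 in the one led by Pln, Des and Myl9 (287 and 258 CCl4 cells, 275 and 259 control cells), with no test within clusters. The call was lost in 7 of 12 alternatives, leaving out any of the 4 libraries among them.

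Fibroblast markers moved with it, with the 10 genes at 6694 and 7258 CPM in CCl4 smooth muscle and 3938 and 3705 CPM in control smooth muscle and 0 of them at 0. Fibroblasts carried 12.4 and 9.14 CPM of Ifit3 in CCl4 libraries and 11.5 and 11.2 CPM in control libraries. The 8 glia markers summed to 13.6 and 16.7 CPM against 13.5 and 12.8 CPM in smooth muscle. The part of other cells in the change of smooth muscle Ifit3 was not tested. Plasma cell Ifit1 had 24 and 7 counts in CCl4 libraries and 3 and 3 in control libraries, and its ratio of 3.26 did not pass (adjusted p = 0.0872). A single CCl4 plasma cell held 22 of those counts.

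T and innate lymphoid cells, blood endothelium, lymphatic endothelium, glia, plasma cells and dendritic cells had 0 members past the threshold in either direction. Of all genes, 0.211% were lower and 0.438% higher in T and innate lymphoid cells, and 0.168% and 0.345% in blood endothelium. The lower and higher shares were 0.0193% and 0.0193% in lymphatic endothelium, 0.163% and 0.381% in glia, 0.436% and 1.07% in plasma cells, and 0.114% and 0.227% in dendritic cells. In T and innate lymphoid cells Igtp had 42.9 and 34.5 CPM in CCl4 libraries and 60.4 and 63.5 CPM in control libraries. Its ratio of -0.67 (SE 0.167, edgeR adjusted p = 0.141) did not pass. In blood endothelium, the class with the most Iigp1, that gene had a log2 ratio of -0.17 (SE 0.112) and overlapping groups, and all 9 ratios there were negative, between -0.96 and -0.02. Lymphatic endothelium had 111 ± 27.3 CPM of Iigp1 in CCl4 libraries and 211 ± 45.5 CPM in control libraries (SD, n = 2 each), and Gbp2 106 ± 26.1 CPM against 221 ± 48.9 CPM, with ratios of -0.91 and -1.03 that did not pass in this class of 337 cells. Glia had Isg15 at 41.7 and 49.8 CPM in CCl4 libraries and 106.5 and 68.4 CPM in control libraries (-0.95, not past the threshold).

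Set side by side, the gamma-like genes gave 3 lower and 0 higher of 28 tested pairs, against 0.513% lower and 0.814% higher over all genes, with 25 negative ratios and a median of -0.50 against -0.0008. The type I-like genes gave 3 lower and 2 higher of 36 pairs, with 21 negative ratios and a median of -0.09. Zbp1 and AW112010 gave 6 lower of 19 pairs and a median of -0.62. The type I-like median exceeded the gamma-like one by 0.40, with an SD between libraries of 0.0938, and the value ran from 0.28 with doublets kept, over 0.29 without CCl4 library 1 or control library 1, to 0.54 without control library 2. Within the epithelium the type I-like median was -0.58 and the gamma-like median -0.64, and in the other classes they were 0.02 and -0.48. By class, the difference was largest in macrophages, where the type I-like median was 0.12 and the gamma-like median -1.43. It was 0.05 in blood endothelium and -0.30 in undivided epithelial cells, where only 2 type I-like genes and 1 gamma-like gene were tested. These medians describe the listed genes and carry no test.

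Gene by gene, the direction was most even for Iigp1 and Zbp1. Iigp1 had a negative ratio in 8 of 8 tested classes, between -2.47 and -0.17, and its CCl4 libraries lay below both control libraries in 7 of them. Zbp1 had a negative ratio in 9 of 9 classes, between -1.76 and -0.02, without overlap in 8, though only 2 passed. Over all genes, 20.5% of pairs lay lower in CCl4 libraries without overlap. The classes share the same 4 libraries, so they are not independent repeats of a direction. In goblet cells Zbp1 had 10.7 and 10.3 CPM in CCl4 libraries and 14.8 and 21.1 CPM in control libraries (-0.79, not past the threshold). Gbp2 was negative in 9 of 10 classes, the exception being dendritic cells (0.57), and Igtp in 8 of 10, with 0 calls. In plasma cells Igtp had 8.71 and 7.66 CPM in CCl4 libraries and 14.3 and 14.4 CPM in control libraries, a clear gap that did not pass (-0.80, adjusted p = 0.167).

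AW112010 was negative in 8 of 10 classes, and ranged from -1.40 in colonocytes to 0.47 in dendritic cells. In smooth muscle it had 98.2 and 107 CPM in CCl4 libraries and 190 and 126 CPM in control libraries, and did not pass (-0.62, adjusted p = 0.0800). Isg15 was negative in 8 of 12 classes, from -1.40 in undivided epithelial cells to 1.46 in dendritic cells, where 19 and 31 counts in CCl4 libraries stood against 8 and 4 in control libraries and the ratio did not pass. Irf7 split evenly, with 4 negative and 5 positive ratios between -0.57 and 0.42. Ifit1 had 4 of each sign, from -1.30 in lymphatic endothelium to 3.26 in plasma cells, and Ifit3 had 5 negative and 2 positive ratios. In dendritic cells Ifit1 and Ifit3 had 0 counts in every library.

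**Figure D5:**
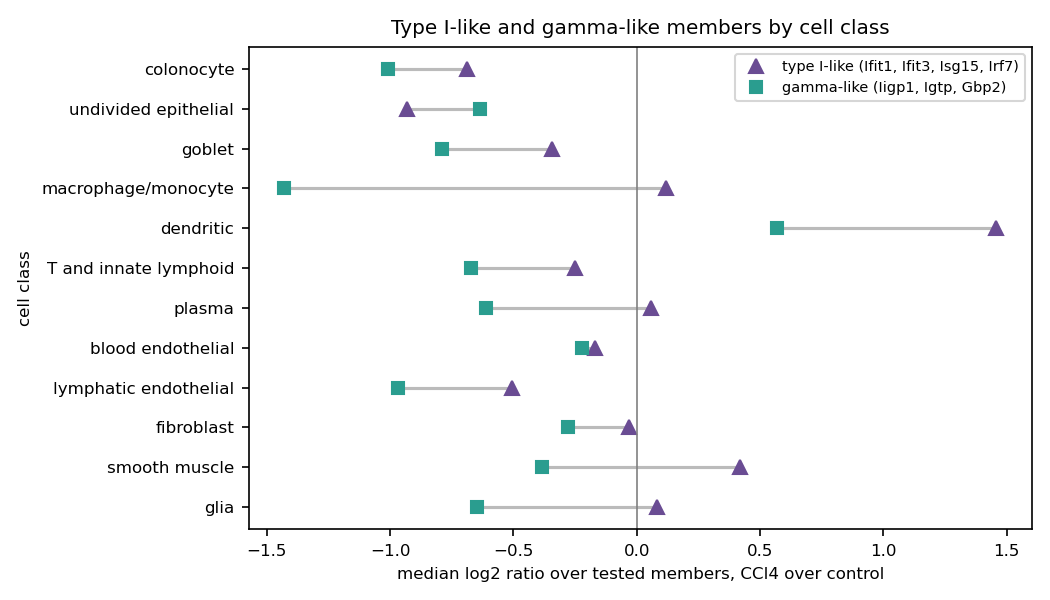
Median log2 ratio of CCl4 over control of the tested type I-like genes (triangles) and gamma-like genes (squares) in each class. In 11 of 12 classes the type I-like median lies to the right, with the widest gap in macrophages (0.12 against -1.43). Some medians rest on few genes, with 1 type I-like and 1 gamma-like gene in dendritic cells and 2 and 1 in undivided epithelial cells. The classes share the same 4 libraries.

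The ligands themselves were measured in few cells. Ifng, interferon gamma, had 13207 counts, 96.4% of them in T and innate lymphoid cells, where it stood at 748 and 658 CPM in CCl4 libraries and 1268 and 1041 CPM in control libraries. Both CCl4 libraries were below both control libraries, and Ifng fell by 0.72 (SE 0.119, edgeR adjusted p = 0.015), a call kept in 12 of 12 alternatives. Cells with an Ifng count numbered 222 of 966 and 174 of 824 in CCl4 libraries and 317 of 1088 and 316 of 1107 in control libraries. The class joined 2 clusters. That led by Ccl5, Gzma and Ifng had 492 and 363 cells in CCl4 libraries and 564 and 562 in control libraries, and that led by Icos, Gata3 and Samsn1 had 474 and 461 cells in CCl4 libraries and 524 and 545 in control libraries. Gzma and Gzmb, granzymes of cytotoxic cells, fell in the same class by 1.63 and 1.18 on the log2 scale. Counted by cluster and without edgeR's scaling, Ifng stood at 1125 and 991 CPM in CCl4 libraries and 1952 and 1591 CPM in control libraries in the Ccl5 cluster, and at 357 and 450 CPM against 527 and 582 CPM in the Icos cluster. The CCl4 libraries lay below both control libraries in each, and no test was run within these clusters. Within a cluster, fewer cells that make Ifng and less RNA per cell cannot be told apart in these sums.

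Ifnb1, interferon beta, had 338 counts, 97.3% of them in macrophages, at 59.0 and 37.1 CPM in CCl4 libraries and 12.3 and 9.29 CPM in control libraries. The groups were far apart, and Ifnb1 rose by 2.16 (SE 0.277, adjusted p = 1.973e-05), in 12 of 12 alternatives. Its counts came from 20 and 18 CCl4 cells and 6 and 5 control cells. In CCl4 libraries nearly all were in the inflammatory cluster, with 166 and 88 counts against 8 and 9 in the C1qa cluster. In control libraries they were divided, with 11 and 16 counts in the inflammatory cluster and 21 and 10 in the C1qa cluster. Within the inflammatory cluster the log2 ratio of Ifnb1 was 2.96 (edgeR adjusted p = 0.0002389). The other 6 ligands on the list had at most 10 counts over all cells. Of the 6 receptor genes, 0 of 62 tested pairs passed, with a median ratio of 0.03. Over all genes, 0.513% of pairs were lower and 0.814% higher, so 0 of 62 is near the share of any genes.

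Irf1, which carries the gamma signal on to further genes, fell in macrophages, at 121 and 118 CPM in CCl4 libraries and 181 and 190 CPM in control libraries (-0.63, edgeR adjusted p = 0.003222). The groups did not overlap, and the call was kept in 12 of 12 alternatives. It fell also in the C1qa cluster alone, by 0.52. Among genes that restrain the response, Socs3 rose in fibroblasts (0.53) and fell in glia (-0.78), each in 12 of 12 alternatives. No other of 57 pairs passed, where 0.513% of pairs over all genes were lower and 0.814% higher.

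Other type I targets moved both ways, as the members did. In macrophages, Oasl1, which keeps Irf7 protein low by blocking its translation, had 157 and 147 CPM in CCl4 libraries and 95.4 and 91.8 CPM in control libraries (0.70, adjusted p = 0.001887, kept in 12 of 12 alternatives). Rsad2, the antiviral enzyme viperin, had 81.1 and 114 CPM against 55.0 and 56.8 CPM (0.80, adjusted p = 0.007304), lost without CCl4 library 2 (0.53) and with DESeq2, and 1 CCl4 cell held 108 of its 298 counts in that library. The RNA sensor Ifih1 rose by 0.49, a call kept in only 3 of 12 alternatives. By macrophage cluster, Oasl1 had ratios of 0.31 in the C1qa cluster and 0.65 in the inflammatory one and was called in neither. Its levels there were 45.55 and 40.9 CPM against 43.28 and 26.84 CPM, and 470.3 and 452 CPM against 293.6 and 294.5 CPM. Rsad2 was called in the C1qa cluster (1.20) and not in the inflammatory one (0.30). Of all genes, 1.09% and 0.199% were called higher in these clusters. In the epithelium, Ifit1bl1, an Ifit1 relative, fell in colonocytes (4.73 and 1.70 CPM in CCl4 libraries, 11.7 and 14.8 CPM in control libraries, -2.04, adjusted p = 0.0007569), and Oasl1 fell in undivided epithelial cells (-1.63, lost without CCl4 library 2 and when cells were clustered without interferon genes). Rsad2 fell in plasma cells (-1.24) and blood endothelium (-0.50) and Cmpk2 in plasma cells (-1.01), and Ifi27l2a rose in smooth muscle (0.38), each lost without at least 1 library. Over all classes, 5 of 265 tested pairs of this list of 32 genes were lower and 4 higher, with a median of -0.15, against 0.513% lower, 0.814% higher and a median of -0.0008 over all genes.

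Of 136 tested pairs from 22 other gamma targets, 9 were lower and 1 higher, with a median of -0.28, against the same shares and median over all genes (0.513%, 0.814% and -0.0008). Ifi47, a GTPase of the Igtp family, fell in colonocytes, at 2.18 and 2.68 CPM in CCl4 libraries and 12.1 and 9.83 CPM in control libraries (-2.17, adjusted p = 0.0001778, kept in 13 of 13 alternatives). It fell as well in undivided epithelial cells (-2.41) and glia (-2.20), the first of these lost without CCl4 library 1 or CCl4 library 2 and both in the stricter cells. Irgm2, given here also because it overlaps Igtp, fell in colonocytes (-1.18) and undivided epithelial cells (-1.50, lost in 6 of 11 alternatives, among them leaving out CCl4 library 1, CCl4 library 2 or control library 1), where Igtp had ratios of -0.44 and -0.64 that did not pass. Irf1 (-0.44) and Cxcl10 (-0.87) fell in colonocytes, with ratios between -0.60 and -0.28 and between -1.20 and -0.45 over all alternatives. The Irf1 call was lost in 5 of 13 alternatives, namely without CCl4 library 2 or control library 1, in the stricter cells, with doublets kept and with low counts not filtered. The Cxcl10 call was lost in 4 of 13, namely with DESeq2, in the stricter cells, with low counts not filtered and without cells that held leukocyte transcripts. Cxcl10, a chemokine for T cells, went the other way in fibroblasts, at 183 and 153 CPM in CCl4 libraries and 114 and 107 CPM in control libraries (0.60, adjusted p = 0.003397, kept in 12 of 12 alternatives). Cxcl9, its relative, had 0 and 1 counts in CCl4 smooth muscle and 56 and 13 counts in control smooth muscle and was called lower (adjusted p = 0.003319).

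Genes whose class levels ran most like each arm were taken from 11205 candidates, by the correlation of log2 level over the 12 class means. For the type I-like mean they were Ddx60 (0.96), Taf12 (0.95), Rtp4 (0.93), Plxna4 (0.93) and Parp9 (0.93). For the gamma-like mean they were Gbp7 (0.96), Vamp5 (0.96), Tmem140 (0.95), Hoxb4 (0.95) and Eng (0.94). All 10 were highest in blood or lymphatic endothelium, and Rtp4 and Gbp7 were themselves on the lists of interferon targets.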

How the data were processed

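Droplet single-cell RNA libraries of mouse colon were measured in 2 CCl4 and 2 control samples. The deposited values are raw counts per gene and cell barcode, made by the authors, per the file headers, with PISA v0.12b. The submitters' processing notes name GRCm38 as genome, and no source used here gives the aligner.

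Cells entered with 200 or more genes and a mitochondrial share up to 25%, and in each library the top 6% by Scrublet doublet score were taken out. Cells were clustered with scanpy 1.11.5 (2000 variable genes, 30 components, 15 neighbours, Leiden resolution 1.5) and named from marker lists. Counts were summed per class and library and tested with edgeR 4.0.16 (TMM factors, quasi-likelihood test, Benjamini-Hochberg adjustment over all genes of a class, threshold 0.05), with DESeq2 1.42.0 as an alternative. The fit was tested on simulated data. Shares of cells carry exact (Clopper-Pearson) 95% intervals.

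All 9 members are named. Of the other interferon lists, at most the 3 genes with the smallest p per list and class are named among those past the threshold, apart from Irgm2, along with ligands of at least 20 counts and the 5 genes most like each arm. The members and lists were chosen with earlier results of these data known. The clustering resolution, the splitting of mixed clusters, the joining of T and innate lymphoid markers, the leaving out of debris clusters, and the fits of single clusters and of macrophages against other classes were chosen after seeing the data. Classes are rebuilt here from markers, so they can differ from the submitters' own. Library numbers are not stated to pair samples.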

Additional observations from a re-analysis of the deposited data

Results flagged for a closer look

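In 7 cases the change of a member differed between cell classes by a test of the difference itself, in 1 joint edgeR fit over 12 classes with Benjamini-Hochberg adjustment over all genes. AW112010 fell more in the epithelium than in the other classes, by -1.08 on the log2 scale (adjusted p = 5.889e-07), and Isg15 by -0.84 (adjusted p = 0.0305).

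Set against macrophages, the change of AW112010 was 0.76 higher in macrophages than in colonocytes (adjusted p = 0.0285), and that of Isg15 1.32 higher in macrophages than in undivided epithelial cells (adjusted p = 0.0392). Iigp1 fell more in macrophages than in blood endothelium (-2.32, adjusted p = 3.812e-05), fibroblasts (-1.95, adjusted p = 0.003398) and smooth muscle (-2.09, adjusted p = 0.003137). The p-values of the macrophage contrasts are adjusted within each contrast, and the contrasts were chosen after seeing the data.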

How the results depend on the processing

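The count of 12 lower pairs was 6 in stricter cells (500 or more genes, mitochondrial share up to 10%), and 9 to 11 when 1 library was left out. The 2 higher pairs became 0 with DESeq2, 1 with doublets kept, and 0 to 2 when 1 library was left out (0 without CCl4 library 1). The 2 members whose change differed between epithelial and other classes became 1, always AW112010, with stricter cells, with doublets kept, when interferon genes were left out of the clustering and when epithelial cells with leukocyte counts were left out, and 1 to 2 when 1 library was left out. The type I-like minus gamma-like median of 0.40 was 0.28 with stricter cells, 0.28 with doublets kept and 0.29 to 0.54 when 1 library was left out. The cause of these shifts was not tested.

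With the library number as a replicate block, 12 pairs were lower, 2 higher and the difference of medians was 0.43. Same-numbered libraries deviated together with correlations of 0.0104 to 0.175 over 12 classes, and with 2 pairs and no statement in the labels the numbers are not taken as pairing. The block lost Ifit3 in smooth muscle and gained Ifit1 in plasma cells (adjusted p = 0.0304). No block was fitted beside the library terms of the joint contrast.

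Of the planned member values, 884 kept direction and side of the threshold, 31 lost the threshold, 9 passed it newly, 75 values not past it moved, and 0 turned sign with a call. Besides Ifit1 in plasma cells, Isg15 in glia, AW112010 in smooth muscle and Igtp in T and innate lymphoid cells passed under at least 1 alternative. Ifih1 in the C1qa macrophage cluster alone stood at -0.072, against 0.49 in all macrophages. Doublets kept left 11 classes, since undivided epithelial cells lost their name. Stricter cells left 405 of 2758 colonocytes and 707 of 3414 undivided epithelial cells. Ifit1, Ifit3 and Gbp2 in the epithelium lie near the limit of detection at this depth.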

Other observations

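A pair of clusters that carried markers of both blood vessels and the mural cells around them took no name and entered no comparison. The larger, led by Rgs5, Plvap and Fabp4, had 124 and 116 cells in CCl4 libraries and 18 and 36 in control libraries. Its Iigp1 level, unscaled, was 504 and 517 CPM in CCl4 libraries and 554 and 1020 CPM in control libraries. The smaller, led by Sema3g and Rgs5, had 55 and 56 CCl4 cells and 4 and 11 control cells, with Iigp1 at 630 and 289 CPM in CCl4 libraries and 1066 and 1308 CPM in control libraries. These levels are of the order of those in blood endothelium.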
